A study of Mus musculus with 6 samples.

Results

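The genes described are 10 genes of vascular growth factor signalling, the VEGF-family ligands *Vegfa*, *Vegfb*, *Vegfc*, *Vegfd* and *Pgf*, the angiopoietins *Angpt1* and *Angpt2*, and the VEGF receptors *Kdr*, *Flt1* and *Flt4*. They were chosen by gene symbol and not by a cutoff on a measured value, but with earlier results of these data known. All 10 were found among the 37384 symbols of the count table. RNA was sequenced from floated adipocytes of inguinal subcutaneous white adipose tissue (scWAT) of male mice at postnatal day 7. The 3 L1L2-FF libraries came from mice of genotype *Lats1*f/f*Lats2*f/f, which carry floxed alleles of both LATS kinases and no Cre. The 3 L1L2-AKO libraries came from littermates that also carry AdipoqCre, in which the same floxed alleles meet a Cre recombinase driven by the *Adipoq* promoter of adipocytes. Each library was a pool of adipocytes from 4 mice, so that differences between single mice are not seen, and the control mice lack Cre as well as the deletion. Digestion and flotation leave other cells attached to or floating with adipocytes, and their RNA is part of each library.

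VEGF-A is the main growth signal of blood vessels and acts on endothelial cells through the receptor VEGFR2, the product of *Kdr*. VEGFR1, the product of *Flt1*, binds VEGF-A, VEGF-B and placental growth factor and can act as a decoy, while VEGFR3, the product of *Flt4*, binds VEGF-C and VEGF-D and is best known for lymphatic growth. Angiopoietin-1 activates the endothelial receptor TIE2 and stabilizes vessels, and angiopoietin-2 mostly opposes it. In fat, adipocytes are a source of VEGF ligands, whereas the receptors are mainly made by endothelial cells.

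Total counts ranged from 30548473 to 32107917 per library, and expression is given as CPM, the reads of a gene per 1000000 reads of its library's TMM-scaled total, with SDs taken across the 3 libraries per genotype. *Lats1* was at 82.9 ± 9.90 CPM in L1L2-FF and 40.2 ± 1.16 CPM in L1L2-AKO (SD, n = 3 each). *Lats2* went against the label, at 76.4 ± 8.68 CPM in L1L2-FF and 119 ± 20.6 CPM in the libraries labelled L1L2-AKO (SD, n = 3 each), so directions are stated by label only. The rise of *Lats2* had an adjusted p of 0.0278 in edgeR's test, and up to 0.104 without L1L2-FF replicate 1 or 3 or L1L2-AKO replicate 2 or 3. The table does not show whether reads of either gene fall in the floxed exons. By quantitative PCR, the paper reported less *Lats1* and *Lats2* mRNA in scWAT adipocytes of L1L2-AKO mice of the same age. Adipocyte markers were abundant throughout, with a summed level of 12 markers of 24810 to 28460 CPM in L1L2-FF and 17410 to 21090 CPM in the libraries labelled L1L2-AKO. The summed level of 15 macrophage markers was 296 to 584.5 CPM in L1L2-FF and 1063 to 1186 CPM in the libraries labelled L1L2-AKO. That of 20 endothelial markers was 2470 to 3313 CPM and 1429 to 3028 CPM, respectively, and no list had a member at 3 counts or fewer in all libraries. Their part in the results below was not tested, except where a ratio to markers is given.

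Of the 10 genes, all passed the count filter and 4 differed between the genotypes at an adjusted p under 0.05 in edgeR's quasi-likelihood test, where 16.5% of the 15674 tested genes did. Those 4 were ligands of the VEGF family. *Vegfc* and *Vegfd* rose in L1L2-AKO libraries (9.28% of all tested genes were called higher), and *Vegfb* and *Pgf* were lower (7.18% were called lower). *Vegfa*, both angiopoietins and all 3 receptors did not pass the threshold. The 3 libraries of one genotype did not overlap with the 3 of the other for 6 of the 10 genes, 2 higher and 4 lower, where 36.4% of all tested genes did not overlap (18.0% higher and 18.4% lower). The median log2 fold change of the 10 genes was 0.016 and that of all tested genes -0.020.

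**Figure D1:**
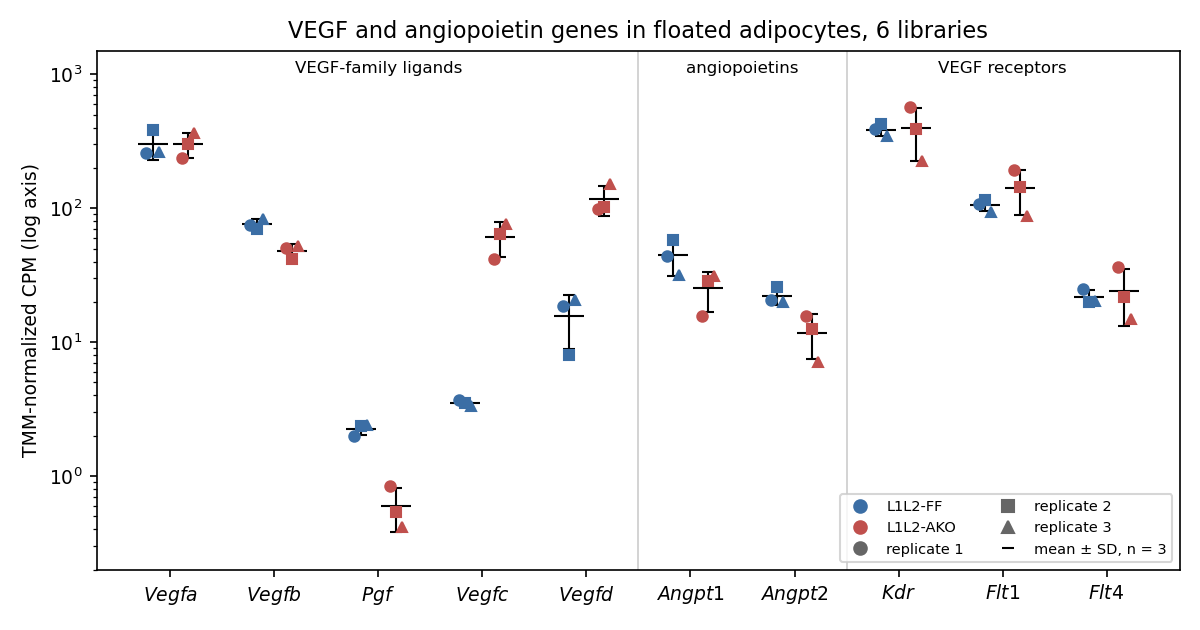
TMM-normalized CPM of the 10 genes on a log axis, with 1 point per library, blue for L1L2-FF and red for L1L2-AKO, marker shape for the replicate number, and the mean ± SD of 3 libraries in black. *Vegfc* and *Vegfd* lie higher in all 3 L1L2-AKO libraries than in any L1L2-FF library and *Pgf* and *Vegfb* lower, while *Vegfa*, *Kdr*, *Flt1* and *Flt4* overlap.

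The largest differences were in *Vegfc* and *Vegfd*, which encode the ligands of VEGFR3. In mm10 with GENCODE M21 models, *Vegfc* spans 54077606 to 54187096 of chromosome 8 and *Vegfd* 164373378 to 164402650 of chromosome X, both on the plus strand. *Vegfc* was at 3.67, 3.49 and 3.32 CPM in L1L2-FF replicates 1 to 3, and at 41.7, 64.6 and 76.7 CPM in L1L2-AKO replicates 1 to 3. The L1L2-FF libraries were close together and the lowest L1L2-AKO library was far above them. In counts, *Vegfc* went from 103 to 115 reads per library to 1383 to 2196. Its log2 fold change was 4.12 (standard error 0.24, 95% interval 3.57 to 4.68, adjusted p = 0.000165 by edgeR with Benjamini-Hochberg adjustment), which is 17.4-fold.

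*Vegfd* was at 18.5, 7.98 and 20.5 CPM in L1L2-FF replicates 1 to 3, and at 99.0, 101.5 and 150.5 CPM in L1L2-AKO replicates 1 to 3. Replicate 2 of L1L2-FF was lower than the other 2 of its genotype, and all 3 libraries labelled L1L2-AKO were above all L1L2-FF libraries. The log2 fold change was 2.90 (standard error 0.35, 95% interval 2.1 to 3.71, adjusted p = 0.0017 by edgeR with Benjamini-Hochberg adjustment), or 7.47-fold. In fits that omitted 1 library, the log2 fold change of *Vegfc* stayed between 3.93 and 4.34 and that of *Vegfd* between 2.58 and 3.14, and both passed the threshold in all 6 fits. Both were also called under all 10 other settings tried. The ratio of *Vegfc* to *Vegfd* CPM within a library was 0.198, 0.438 and 0.162 among controls (L1L2-FF 1 to 3) against 0.421, 0.636 and 0.510 for L1L2-AKO 1 to 3, and these overlapped (exact permutation test, two-sided, p = 0.2, adjusted over the 12 ratios p = 0.267).

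The stretches before the RefSeq starts of *Vegfc*, *Vegfd* and *Vegfb* are shown because these genes moved in opposite directions within one family. Bases upstream of the GENCODE M21 gene start only are printed, and *Pgf*, whose windows lie inside its GENCODE gene, is left out. They are given 5′ to 3′ on the gene's strand from build GRCm38.p6, the assembly of mm10, in lower case, and capitals mark a match to GCGTG or its reverse complement CACGC.
Vegfc, chr8:54077282-54077531, plus strand: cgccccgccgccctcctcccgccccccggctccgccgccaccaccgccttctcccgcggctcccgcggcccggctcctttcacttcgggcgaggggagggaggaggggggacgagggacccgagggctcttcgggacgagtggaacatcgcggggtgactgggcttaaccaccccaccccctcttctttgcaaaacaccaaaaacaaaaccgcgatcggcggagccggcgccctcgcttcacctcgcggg
Vegfd, chrX:164373272-164373377, plus strand: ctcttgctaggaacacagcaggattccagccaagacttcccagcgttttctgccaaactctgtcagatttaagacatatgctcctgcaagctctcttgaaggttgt
Vegfb, chr19:6987652-6987901, minus strand: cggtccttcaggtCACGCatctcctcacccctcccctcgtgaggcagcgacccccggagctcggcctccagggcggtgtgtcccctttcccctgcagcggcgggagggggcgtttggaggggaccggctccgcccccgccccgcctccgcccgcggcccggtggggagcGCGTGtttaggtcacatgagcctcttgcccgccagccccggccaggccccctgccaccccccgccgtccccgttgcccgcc
Windows of 250 bases before each RefSeq start were searched on both strands for GGAATG (the core of TEAD sites), ACGTG and GCGTG (cores of hypoxia response elements) and TGANTCA (AP-1). RefSeq gave a window for 8 of the 10 genes, and the windows of *Angpt1* and *Angpt2* were not analysed here. None of the 4 motifs was found in the windows of *Vegfc* and *Vegfd*. *Vegfb* held 2 matches to GCGTG, and *Pgf*, which has 2 RefSeq starts, held 1 in 1 of its windows. The same letters were also found in genes that did not pass the threshold, with 2 matches in *Kdr*, 1 in *Flt1* and 1 in *Vegfa*, and the 1 match to ACGTG was in *Vegfa*. *Vegfa* also has 2 RefSeq starts, and its matches to GCGTG and ACGTG lay in the window inside its GENCODE gene. Its other window, before the gene, held none of the 4 motifs. GGAATG and TGANTCA were in no window of the 8 genes. Of 32851 windows of the same length in the whole table, 12.6% held GGAATG, 16.6% ACGTG, 28.2% GCGTG and 6.75% TGANTCA. The share of G and C was 71.6% in the *Vegfc* window, 76.4% in that of *Vegfb* and 42.4% in that of *Vegfd*, against a median of 52.4% over all windows. A match describes letters only, and the search covers no sequence beyond these windows.

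*Vegfa* (chromosome 17, 46016993 to 46032369, minus strand) was the most abundant ligand and differed little between the genotypes. Its level was 257, 383.5 and 264.5 CPM in L1L2-FF replicates 1 to 3, and 238, 302 and 364 CPM in L1L2-AKO replicates 1 to 3. The ranges of the genotypes overlapped almost completely, with means of 302 ± 71.1 and 301 ± 62.7 CPM (SD, n = 3 each). The log2 fold change was -0.0018 with a 95% interval of -0.49 to 0.49 (edgeR with Benjamini-Hochberg adjustment, adjusted p = 0.997). A change in either direction within that interval is not excluded. The sign of the fold change depended on the setting, with values of -0.15 to 0.21 when 1 library was left out, the highest without L1L2-FF replicate 2. It was 0.14 without L1L2-AKO replicate 1. Counts per gene do not separate the splice forms of *Vegfa*, of which the annotation lists 13 transcripts.

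*Vegfb*, whose product binds VEGFR1, and *Pgf*, which encodes placental growth factor, were lower in the libraries labelled L1L2-AKO. *Vegfb* (chromosome 19, 6982473 to 6987651, minus strand) was at 75.0, 69.4 and 83.5 CPM in L1L2-FF and at 50.2, 41.7 and 52.2 CPM in L1L2-AKO, replicates 1 to 3. The lowest L1L2-FF library lay above the highest L1L2-AKO library. On the log2 scale the difference was -0.66 (standard error 0.13, adjusted p = 0.0118 by edgeR with Benjamini-Hochberg adjustment). The call was lost without L1L2-AKO replicate 2, with an adjusted p of 0.057 in edgeR's test and a log2 fold change of -0.57.

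*Pgf* (chromosome 12, 85166635 to 85177790, minus strand) was the least abundant of the 10 genes, with 62, 77 and 75 counts in L1L2-FF replicates 1 to 3 and 28, 17 and 12 counts in L1L2-AKO replicates 1 to 3. Its level fell from 2.26 ± 0.243 to 0.601 ± 0.219 CPM (SD, n = 3 each), and no L1L2-AKO library reached the lowest L1L2-FF library. The log2 fold change was -1.90 (standard error 0.34, adjusted p = 0.0085 by edgeR with Benjamini-Hochberg adjustment), or 3.72-fold lower. It was called in all 6 fits without a library, with adjusted p-values of edgeR's test up to 0.0463.

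**Figure D2:**
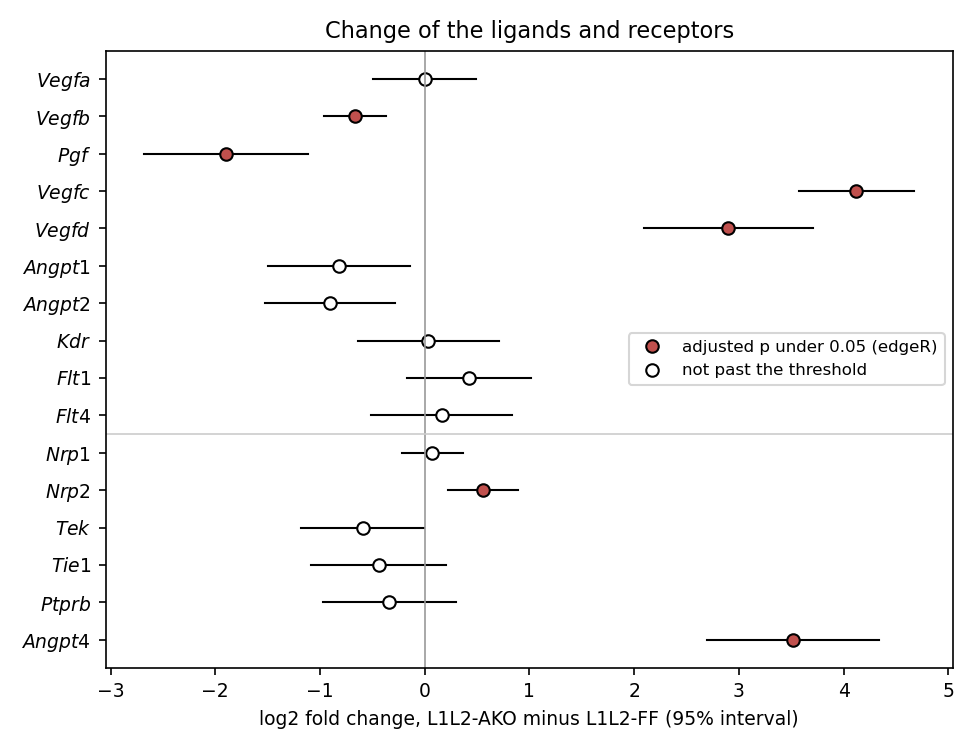
Log2 fold change of L1L2-AKO over L1L2-FF with its 95% interval for the 10 genes (above the line) and 6 co-receptor, TIE and angiopoietin genes (below it), filled where the adjusted p of edgeR's test was under 0.05. *Vegfc*, *Vegfd* and *Angpt4* lie far to the right, *Vegfb* and *Pgf* to the left, and the intervals of the 3 VEGF receptors include 0.

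To compare ligands with each other, levels were divided by exon length, as CPM per kb of the union of a gene's exons. Summed over the 5 VEGF-family ligands, the level was 116.5, 138 and 124.5 CPM per kb in L1L2-FF replicates 1 to 3, and 145, 165 and 211 CPM per kb in L1L2-AKO replicates 1 to 3. *Vegfc* and *Vegfd* together made up 7.88%, 3.43% and 7.93% of that sum in L1L2-FF, and 40.0%, 41.5% and 44.4% in L1L2-AKO. The VEGFR3 ligands were thus a small part of the ligand mRNA in every L1L2-FF library and a far larger part in each L1L2-AKO library. With the longest transcript as the length, their share was 3.1% to 7.36% in L1L2-FF and 37.6% to 41.7% in L1L2-AKO. The share of *Vegfa* was 55.2% ± 8.26 in L1L2-FF and 40.4% ± 2.21 in L1L2-AKO, and that of *Vegfb* 37.7% ± 5.67 and 17.5% ± 3.44 (SD, n = 3 each). *Pgf* stayed under 1% in all libraries, at most 0.669%. These shares were set up after the values were seen, and are given without a test.

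**Figure D3:**
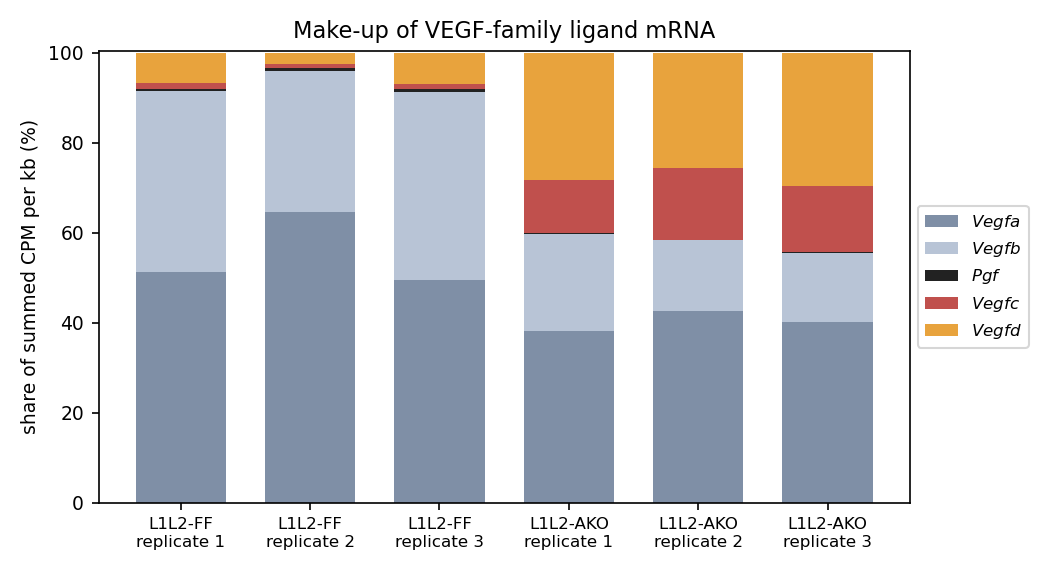
Share (%) of each VEGF-family ligand in the summed CPM per kb of the 5 ligands, with 1 bar per library. *Vegfc* (red) and *Vegfd* (orange) together take 3.43% to 7.93% of the bar in the 3 L1L2-FF libraries and 40.0% to 44.4% in the 3 L1L2-AKO libraries.

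By level per length, the order in L1L2-FF was *Vegfa* (70.4 CPM per kb), *Vegfb* (47.3), *Kdr* (42.7), *Angpt1* (8.55), *Flt1* (7.79), *Vegfd* (6.5), *Angpt2* (5.99), *Flt4* (2.64), *Vegfc* (1.43) and *Pgf* (0.778). *Vegfb* and *Kdr* overlapped between their libraries, as did each neighbouring pair from *Angpt1* to *Angpt2*, and the other neighbours did not. In L1L2-AKO the order was *Vegfa* (70.3 CPM per kb), *Vegfd* (48.6), *Kdr* (43.7), *Vegfb* (29.9), *Vegfc* (24.9), *Flt1* (10.4), *Angpt1* (4.85), *Angpt2* (3.19), *Flt4* (2.95) and *Pgf* (0.207). There each neighbouring pair from *Vegfa* to *Vegfc* overlapped, and so did *Angpt1* with *Angpt2* and *Angpt2* with *Flt4*. By this order, *Vegfd* moved from rank 6 to rank 2 and *Vegfc* from rank 9 to rank 5. With the longest transcript as the length, *Vegfd* came to rank 3 in L1L2-AKO, behind *Kdr*.

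Both angiopoietins had lower fitted levels in the libraries labelled L1L2-AKO, and neither passed the threshold. *Angpt1* (chromosome 15, 42424723 to 42676977, minus strand) was at 43.7, 57.9 and 31.9 CPM in L1L2-FF and at 15.6, 28.7 and 31.4 CPM in L1L2-AKO, replicates 1 to 3. The genotypes came within 1 CPM of each other, between L1L2-FF replicate 3 and L1L2-AKO replicate 3. Its fitted log2 fold change was -0.82 (95% interval -1.50 to -0.14, edgeR with Benjamini-Hochberg adjustment, adjusted p = 0.0973). An antisense gene overlaps 14.2% of the exon bases of *Angpt1* and had at most 4 counts in a library.

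*Angpt2* (chromosome 8, 18690263 to 18741562, minus strand) was at 20.8, 25.6 and 19.9 CPM in L1L2-FF and at 15.7, 12.5 and 7.12 CPM in L1L2-AKO, replicates 1 to 3. All L1L2-AKO libraries lay below all L1L2-FF libraries. Its log2 fold change was -0.91 (95% interval -1.53 to -0.29, edgeR with Benjamini-Hochberg adjustment, adjusted p = 0.0554), which misses the threshold. Without L1L2-AKO replicate 1 the adjusted p of edgeR's test was 0.0275, with no count filter 0.0336 and with the replicate number as a block 0.0333. DESeq2's Wald test called both angiopoietins, with adjusted p-values of 0.0395 for *Angpt1* and 0.0119 for *Angpt2*, and limma-voom gave 0.0446 for *Angpt2*. *Angpt2* lies inside *Mcph1*, which runs on the other strand, shares no exonic base with it and had 676 to 932 counts in L1L2-FF and 402 to 470 in L1L2-AKO. The ratio of *Angpt1* to *Angpt2* CPM was 2.1, 2.26 and 1.60 in L1L2-FF and 0.992, 2.29 and 4.41 in L1L2-AKO, in replicate order. The L1L2-AKO libraries spread on both sides of the controls (exact permutation test, two-sided, p = 0.8, adjusted p = 0.8 over the 12 ratios).

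The third angiopoietin of mice, *Angpt4*, was near the detection limit in L1L2-FF, with 5, 8 and 6 counts in replicates 1 to 3. It had 66, 70 and 80 counts in L1L2-AKO replicates 1 to 3, all above the L1L2-FF libraries, and a level of 2.34 ± 0.413 CPM there (SD, n = 3). It passed the count filter only through the libraries in which it was high, so its call by edgeR is not read as support, and it was not tested where every library needed at least 10 counts.

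The 3 VEGF receptors did not pass the threshold, and varied widely among the L1L2-AKO libraries. *Kdr* (chromosome 5, 75932827 to 75978458, minus strand) was at 388, 423 and 346 CPM in L1L2-FF and at 567, 390 and 227 CPM in L1L2-AKO, replicates 1 to 3. L1L2-AKO replicate 1 was the highest and replicate 3 the lowest of all 6 libraries. *Flt1* (chromosome 5, 147561604 to 147726011, minus strand) was at 108, 114 and 93.6 CPM in L1L2-FF and at 192, 143 and 87.3 CPM in L1L2-AKO. *Flt4* (chromosome 11, 49609263 to 49652739, plus strand) was at 24.9, 19.9 and 20.4 CPM in L1L2-FF and at 36.3, 21.8 and 14.8 CPM in L1L2-AKO. In all 3 genes the L1L2-AKO libraries were thus on both sides of the L1L2-FF libraries. The log2 fold changes were 0.034 for *Kdr* (95% interval -0.64 to 0.71), 0.42 for *Flt1* (-0.17 to 1.01) and 0.16 for *Flt4* (-0.51 to 0.84), with adjusted p-values from edgeR of 0.955, 0.316 and 0.765. The sign of *Kdr* turned under some settings (-0.0062 when library sizes omitted the 20 most abundant genes, -0.32 without L1L2-AKO replicate 1), and that of *Flt4* was -0.25 without L1L2-AKO replicate 1. The membrane and soluble forms of VEGFR1 both come from *Flt1* and are not separated by these counts.

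The levels of endothelial markers were read beside the receptors. Summed over 20 markers, L1L2-FF replicates 1 to 3 had 3313, 3027 and 2470 CPM, and L1L2-AKO replicates 1 to 3 had 3028, 2464 and 1429 CPM, so L1L2-AKO replicate 3 was again the lowest. Fewer endothelial cells and less RNA per endothelial cell cannot be told apart in such libraries. Of the 20 markers 18 were fitted lower in L1L2-AKO, 1 passed the threshold (7.18% of all tested genes were called lower) and the median log2 fold change was -0.42. The marker that passed was *Vwf*, von Willebrand factor, at -1.05 on the log2 scale (edgeR, adjusted p = 0.038). Its call was lost without L1L2-FF replicate 1 or 2 or L1L2-AKO replicate 2 or 3, with adjusted p-values of edgeR's test up to 0.13. *Pecam1* (CD31) and *Cdh5* (VE-cadherin) had log2 fold changes of -0.47 and -0.29 that did not pass the threshold, and *Plvap*, a protein of fenestrated endothelium, had 0.24.

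**Figure D4:**
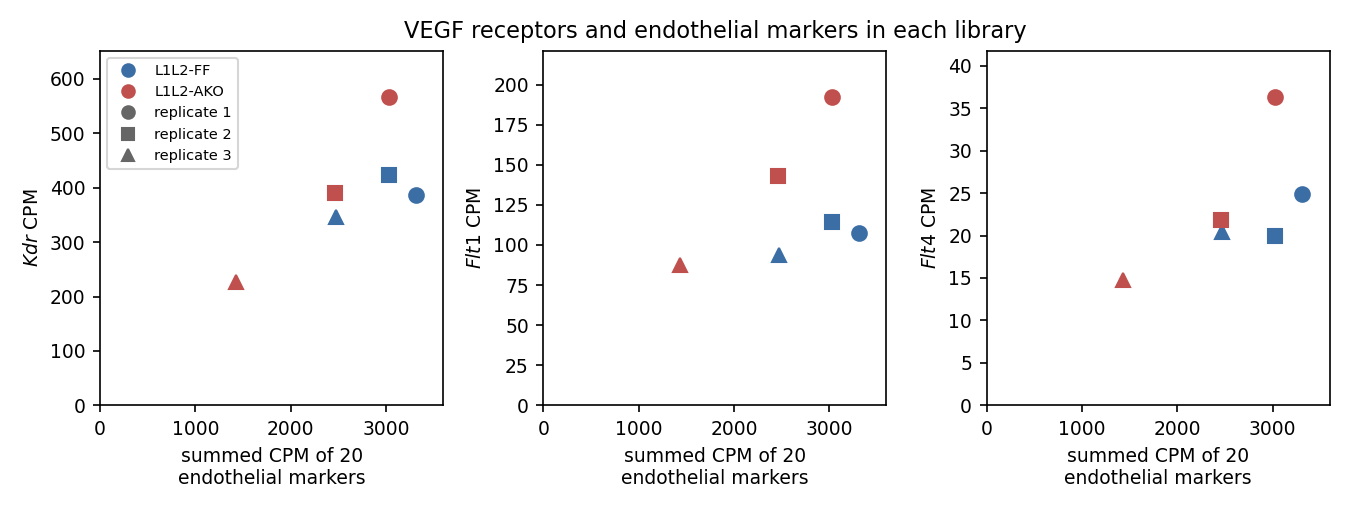
CPM of *Kdr*, *Flt1* and *Flt4* (vertical axes) against the summed CPM of 20 endothelial markers (horizontal axis), with 1 point per library, blue for L1L2-FF, red for L1L2-AKO and marker shape for the replicate number. At a like marker sum the L1L2-AKO libraries lie above the L1L2-FF libraries for *Flt1*, and L1L2-AKO replicate 3 is at the lower left of each panel.

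Relative to the endothelial marker sum, each receptor was higher in all 3 libraries labelled L1L2-AKO than in any L1L2-FF library. The ratio of *Flt1* to the marker sum was 0.0325, 0.0378 and 0.0379 in L1L2-FF and 0.0635, 0.0581 and 0.0610 in L1L2-AKO, in replicate order. That is a difference of 0.76 on the log2 scale, beside a pooled SD of 0.10. For *Flt4* the difference was 0.47 and for *Kdr* 0.35 on the log2 scale, with pooled SDs of 0.19 and 0.14. The smallest two-sided p that an exact permutation test can reach with 3 libraries against 3 is 0.1, and each of these ratios gave that p = 0.1 (adjusted p = 0.2 over the 12 ratios). *Angpt2*, which endothelial cells make, went the other way, with a difference of -0.56 (exact permutation p = 0.1, adjusted p = 0.2). With *Pecam1* or *Cdh5* alone as the denominator, the genotypes did not overlap for these 4 genes. Both are abundant parts of the marker sum, at 519 and 751 CPM on average in L1L2-FF, so these ratios partly repeat the one above. With *Plvap* alone, at 63.4 CPM in L1L2-FF, the genotypes overlapped for the 3 receptors. The log2 differences were then -0.23 for *Kdr*, 0.18 for *Flt1* and -0.11 for *Flt4*, while *Angpt2* had -1.14. The single-marker ratios were chosen after the data were seen.

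The proportion of the receptors to each other was compared next. The ratio of *Flt1* to *Kdr* CPM was 0.278, 0.271 and 0.270 in L1L2-FF and 0.339, 0.367 and 0.384 in L1L2-AKO, in replicate order. The L1L2-FF libraries were close together and all L1L2-AKO libraries were higher, a difference of 0.41 on the log2 scale with a pooled SD of 0.066 (exact permutation test, two-sided, p = 0.1, adjusted p = 0.2 over the 12 ratios). The ratio of *Flt4* to *Kdr* overlapped, at 0.0568 ± 0.00877 and 0.0617 ± 0.00500 (SD, n = 3 each). *Flt4* relative to 10 lymphatic markers also overlapped, with 0.227 ± 0.0521 in L1L2-FF and 0.188 ± 0.128 in L1L2-AKO (SD, n = 3 each). The largest parts of that marker sum were *Nr2f2* and *Lyve1*, with means of 40.3 and 22.6 CPM in L1L2-FF and 58.4 and 31.5 CPM in L1L2-AKO. *Prox1* had means of only 1.32 and 1.25 CPM, so the ratio does not measure *Flt4* per lymphatic cell. *Vegfa* relative to the sum of 12 adipocyte markers overlapped too (exact permutation p = 0.2, adjusted p = 0.267), as did *Vegfa* relative to *Vegfb* (exact permutation p = 0.2, adjusted p = 0.267), and *Pgf* relative to *Vegfa* was lower in all L1L2-AKO libraries (exact permutation p = 0.1, adjusted p = 0.2).

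Of the 6 co-receptor, TIE receptor and angiopoietin genes outside the 10, 2 were called higher by edgeR and none lower, where 9.28% and 7.18% of all tested genes were. Their median log2 fold change was -0.13 against -0.020 for all tested genes. *Angpt4* was 1 of the 2, with the limit given above. The other was *Nrp2*, neuropilin-2, a co-receptor that binds VEGF-C and VEGF-D together with VEGFR3. *Nrp2* was at 129, 141 and 104 CPM in L1L2-FF and at 166.5, 182 and 199.5 CPM in L1L2-AKO, replicates 1 to 3, with no overlap. The log2 fold change was 0.55 (standard error 0.14, adjusted p = 0.0364 by edgeR with Benjamini-Hochberg adjustment). Its call was lost without L1L2-FF replicate 1 or 3 or L1L2-AKO replicate 2 or 3, with adjusted p-values of edgeR's test up to 0.117, and was 0.0587 with the replicate number as a block. *Nrp1*, the partner of VEGFR2, was at 427.5 ± 26.5 and 449 ± 26.1 CPM (SD, n = 3 each), with a log2 fold change of 0.072. *Tek* (TIE2), *Tie1* and *Ptprb*, which encodes the endothelial phosphatase that opposes TIE2, had log2 fold changes of -0.59, -0.44 and -0.34 and did not pass the threshold. These 3 are also in the endothelial list. In these genes as well, L1L2-AKO replicate 3 was the lowest of the 6 libraries.

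Among 14 genes that process, bind or inhibit the ligands, 13 were tested. Of these 3 were called higher and 0 lower, where 9.28% and 7.18% of all tested genes were. The 3 are known as inhibitors of vessel growth, *Thbs1* and *Thbs2*, which encode thrombospondins, and *Adamts1*, a protease that binds VEGF-A. Not every inhibitor in the list rose. *Vash1*, *Serpinf1* and *Col18a1* had log2 fold changes of -0.68, -0.0057 and 0.20 and did not pass. *Thbs1* rose from 187 ± 49.1 to 2178 ± 1060 CPM and *Thbs2* from 136 ± 24.7 to 603 ± 279 CPM (SD, n = 3 each), log2 fold changes of 3.54 and 2.15. *Adamts1* rose from 232 ± 33.2 to 534 ± 95.8 CPM (SD, n = 3 each), with a log2 fold change of 1.20. Adjusted p-values of edgeR's test with Benjamini-Hochberg adjustment were 0.00141, 0.00634 and 0.00393, and all 3 were called in each fit without a library. *Ctsd*, which encodes the protease cathepsin D, was at -0.33 on the log2 scale and did not pass. *Adamts3*, a protease that cuts VEGF-C, and *Ccbe1*, its cofactor, had low counts, *Ccbe1* at 0.358 ± 0.104 and 0.938 ± 0.228 CPM and *Adamts3* at 0.528 ± 0.192 and 0.624 ± 0.219 CPM (SD, n = 3 each), and neither passed (adjusted p = 0.0512 and 0.77 by edgeR with Benjamini-Hochberg adjustment). These 2 genes were named after their values were seen.

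Of 20 genes that relay VEGF receptor signals inside the cell, 3 were called higher, *Prkcb*, *Map2k1* and *Gab1*, and 0 lower, with a median of -0.00042 on the log2 scale. Among all tested genes, 9.28% were called higher and 7.18% lower. *Prkcb*, a protein kinase C, had a log2 fold change of 1.09 and *Gab1*, a docking protein, one of 0.63. Adjusted p-values of edgeR's test were 0.0242 and 0.0246, and rose to at most 0.0986 and 0.0922 without L1L2-FF replicate 1, L1L2-AKO replicate 2 or L1L2-AKO replicate 3 (for *Prkcb* also without L1L2-FF replicate 3). *Map2k1* had a log2 fold change of 0.55 (not called without L1L2-FF replicate 1 or L1L2-AKO replicate 3, adjusted p up to 0.0649 by edgeR), and the abundant *Akt1* had 0.14 and did not pass. No gene of this list was called higher by edgeR when L1L2-FF replicate 1 or L1L2-AKO replicate 3 was omitted (a count of 0), and 1 was when L1L2-AKO replicate 2 was omitted.

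Of 12 genes that endothelium turns on under VEGF or in tip cells, 1 was called higher and 0 lower, where 9.28% and 7.18% of all tested genes were. Their median was -0.32 on the log2 scale. The gene called was *Nid2*, which encodes a basement membrane protein. Its level went from 361 ± 121 to 1524 ± 576.5 CPM (SD, n = 3 each), which is 2.08 on the log2 scale (edgeR, adjusted p = 0.00616). In L1L2-AKO replicates 1 to 3 it was at 987, 1452 and 2133 CPM, highest in replicate 3, where the endothelial marker sum was lowest (1429 CPM). Which cells made the *Nid2* mRNA was not tested. *Aplnr*, the apelin receptor, and *Robo4*, an endothelial guidance receptor, had log2 fold changes of -0.46 and -0.39 that did not pass.

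Hypoxia-inducible factors drive *Vegfa* in many tissues, so 22 genes of that response were read beside it. They went in both directions, with 4 called higher and 5 called lower, where 9.28% and 7.18% of all tested genes were. The median log2 fold change of the 22 genes was -0.12. *Adm*, which encodes the vasodilator adrenomedullin, rose from 11.0 ± 2.05 to 93.0 ± 42.2 CPM and *P4ha2*, a collagen prolyl hydroxylase, from 21.5 ± 3.05 to 105 ± 34.97 CPM (SD, n = 3 each). *P4ha1* and *Hif1a* had log2 fold changes of 1.48 and 0.71. *Bnip3*, a mitophagy gene, fell by 1.35, the glycolysis regulator *Pfkfb3* by 1.17 and the prolyl hydroxylase gene *Egln3* by 2.57 on the log2 scale, and *Pdk1* and *Egln1* fell by 0.50 and 0.41. *Adm*, *P4ha1*, *P4ha2* and *Bnip3* were called by edgeR in all 6 fits without a library. The call of *Egln3* was lost without L1L2-AKO replicate 3 (adjusted p = 0.0575) and that of *Pfkfb3* without L1L2-AKO replicate 2 (adjusted p = 0.0604). *Hif1a* was not called without L1L2-FF replicate 1 or L1L2-AKO replicate 2 or 3 (adjusted p up to 0.0854), and *Pdk1* and *Egln1* were called in only 1 of the 6 fits, the one without L1L2-FF replicate 2 (adjusted p up to 0.152 and 0.107 in the others). The number called lower was 3 without L1L2-FF replicate 1 or 3 or with L1L2-AKO replicate 1 omitted. It was 2 with L1L2-AKO replicate 2 or 3 omitted. *Epas1*, the abundant HIF gene of endothelium and fat, had a log2 fold change of 0.058 and did not pass.

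**Figure D5:**
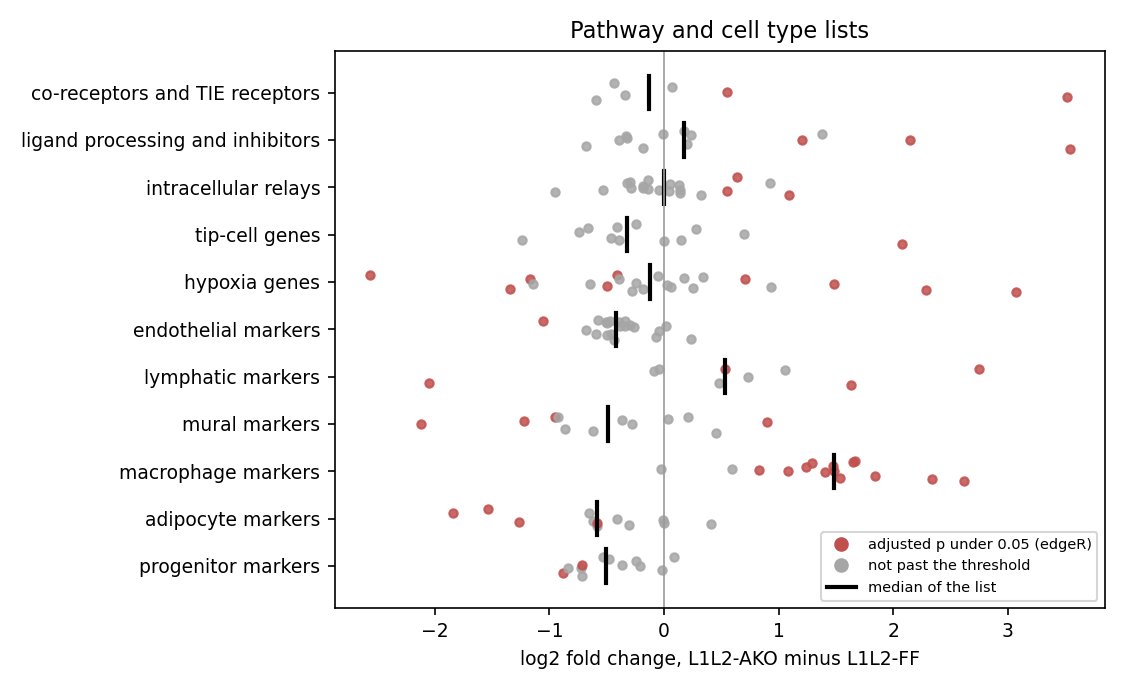
Log2 fold change of L1L2-AKO over L1L2-FF for the tested genes of 11 lists, with 1 point per gene, red where the adjusted p of edgeR's test was under 0.05, grey otherwise, and a black bar at the median of the list (vertical scatter within a list has no meaning). Macrophage markers lie to the right with a median of 1.48, endothelial markers slightly to the left with a median of -0.42, and the hypoxia genes on both sides.

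Lymphatic endothelial cells carry VEGFR3 and respond to VEGF-C and VEGF-D, and 10 of their markers were examined. Of the 9 tested, 3 were called higher and 1 lower, where 9.28% and 7.18% of all tested genes were, with a median log2 fold change of 0.53. *Prox1*, the transcription factor that defines lymphatic endothelium, was at 1.32 ± 0.331 CPM in L1L2-FF and 1.25 ± 0.177 CPM in L1L2-AKO (SD, n = 3 each), and its log2 fold change, -0.083, did not pass (*Prox1* was named after its values were seen). *Lyve1*, which some macrophages also express, had a log2 fold change of 0.48 and did not pass, and that of *Fgl2* was -0.039. The markers called higher were *Sema3d* (log2 fold change 2.75), *Mmrn1* (1.63) and *Nr2f2* (0.53), and *Reln* was called lower (-2.05). *Sema3d* was called in all 6 fits without a library, whereas the call of *Nr2f2* was lost without L1L2-FF replicate 1 or 3 or L1L2-AKO replicate 2 or 3, that of *Mmrn1* without L1L2-FF replicate 1 or 3 or L1L2-AKO replicate 1 or 2, and that of *Reln* without L1L2-AKO replicate 1 or 3, with adjusted p-values of edgeR's test up to 0.141, 0.0787 and 0.0818. *Nr2f2* was also not called with library size alone, with upper-quartile factors, or with the 20 most abundant genes left out.

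Markers of the other cells of the fraction moved as follows, and their part in the ligand levels was not tested. Among all tested genes, 9.28% were called higher and 7.18% lower. Of 15 macrophage markers 13 were called higher and 0 lower, with a median log2 fold change of 1.48. Among them *Mrc1*, the mannose receptor, rose from 71.5 ± 23.6 to 256 ± 28.1 CPM (SD, n = 3 each), *Aif1* and *Fcgr1* had log2 fold changes of 2.62 and 2.34, and *Lyz2* and *Csf1r* had 1.08 and 1.24. The count fell to 7 without L1L2-FF replicate 1 and to 8 without L1L2-AKO replicate 2, and *Lyz2* and *Csf1r* were not called in either of these fits. Of 12 mural markers 1 was called higher, *Notch3* (0.90, not called without L1L2-AKO replicate 2, adjusted p = 0.0576 in edgeR's test), and 3 lower, among them the pericyte genes *Rgs5* (-1.22, not called without L1L2-FF replicate 1 or L1L2-AKO replicate 2) and *Higd1b* (-2.12). The number of mural markers called lower was 1 without L1L2-FF replicate 1 or L1L2-AKO replicate 2. It was 5 when L1L2-AKO replicate 1 was omitted. The abundant mural genes *Mcam* and *Pdgfrb* had log2 fold changes of 0.21 and 0.45 that did not pass.

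Of 12 adipocyte markers 4 were called lower and 0 higher, where 7.18% and 9.28% of all tested genes were, with a median log2 fold change of -0.58. *Retn*, which encodes resistin, and *Acsl1*, a fatty acid activating enzyme, fell by 1.84 and 1.54 on the log2 scale. *Adipoq* and *Pparg* were also called, with log2 fold changes of -1.26 and -0.59 (edgeR, adjusted p = 0.0064 and 0.0122). *Adipoq* was called in all 6 fits without a library and *Pparg* in 3 of them. *Fabp4*, *Cd36* and *Plin4*, the most abundant of the list, had log2 fold changes of -0.30, -0.41 and 0.00062 and did not pass. Of 12 progenitor markers 2 were called lower, *Pi16* (-0.88) and *Clec3b* (-0.72), and 0 higher, with a median of -0.51 and values of -0.72, -0.53 and -0.73 for the abundant *Dcn*, *Cd34* and *Dlk1*, which did not pass. The number of progenitor markers called lower was 0 without L1L2-FF replicate 1, L1L2-AKO replicate 2 or L1L2-AKO replicate 3, 1 without L1L2-FF replicate 2 and 5 without L1L2-FF replicate 3. In the lists with 0 called lower, some genes had an unadjusted p of edgeR's test under 0.05 and a lower fitted level. They were 1 co-receptor gene, 2 processing genes, 3 relays, 1 tip-cell gene and 0 macrophage markers. DESeq2 called 0, 1, 1, 1 and 0 genes of these lists lower, where it called 1602 of all 15674 tested genes lower. For the lists with 0 called higher, those of endothelial, adipocyte and progenitor markers, the unadjusted count of higher genes and DESeq2's count were also 0. *Vegfc* and *Vegfd* were higher in the same libraries as the macrophage list, but their order within a genotype differed. L1L2-FF replicate 2 had the highest macrophage sum of the controls (584.5 CPM) and the lowest *Vegfd* (7.98 CPM). In L1L2-AKO replicates 1 to 3 the macrophage sum was 1071, 1186 and 1063 CPM. There *Vegfc* was at 41.7, 64.6 and 76.7 CPM and *Vegfd* at 99.0, 101.5 and 150.5 CPM. The lists of endothelial cells, mural cells (-0.49), progenitors and adipocytes had negative median log2 fold changes, and the lymphatic list had a positive one (0.53). That lymphatic median is the value of 1 gene, *Nr2f2*, and the list was mixed, with 6 markers fitted higher and 3 lower. *Prox1* was among the lower ones at -0.083 and *Reln* at -2.05. A change in lymphatic cells was not tested. With only 2 genotypes, all genes and lists that differ move together, and which cells made the ligands was not tested.

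For each of the 10 genes, the 2 genes with the most similar pattern over the 6 libraries were found among 9805 candidates (average log2 CPM 3 or more), by the root-mean-square difference of log2 CPM after centring each gene. Nearest to *Vegfc* were *Ehd3*, an endocytic recycling gene, and *Col4a5*, a basement membrane collagen, with differences of 0.181 and 0.209. *Ehd3* was at 9.0, 8.57 and 11.5 CPM in L1L2-FF and at 109, 152 and 197 CPM in L1L2-AKO, so that it was lowest in replicate 1 among the L1L2-AKO libraries, as *Vegfc* was. Nearest to *Vegfd* were *Ptchd4* and *Basp1* (0.327 and 0.340), a looser match than for any other of the 10 genes. *Vegfa* was followed most closely by *Vamp2* and *Cped1* (0.0636 and 0.0734), *Vegfb* by *Plpp6* and *Tmem8b* (0.0357 and 0.0448) and *Pgf* by *Rgs7bp* and *Cmklr1* (0.157 and 0.179). For *Angpt1* they were *Fmo5* and *Slc1a3* (0.0791 and 0.129), and for *Angpt2* *Dmd* and *Pcdh18* (0.102 and 0.122). The receptors had *Mcc* and *Synm* (0.0683 and 0.0871) for *Kdr*, *Cyyr1* and *Unc5b* (0.0939 and 0.104) for *Flt1*, and *Dok4* and *Plvap* (0.0931 and 0.0953) for *Flt4*. *Unc5b* is in the tip-cell list and *Plvap* in the endothelial list. The measure describes these 6 libraries only.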

How the data were processed

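Per the labels and methods, paired-end reads came from a BGISEQ-500. The authors aligned them to mm10 with HISAT2 2.1.0 and analysed the alignments with StringTie 1.3.5, and deposited unnormalized counts, 1 whole number per symbol and library. The annotation, counting program and strand setting are not given in the sources used here, so reads of overlapping genes cannot be separated. Libraries were assigned to genotypes by their labels.

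Counts were analysed in R 4.3.3 with edgeR 4.0.16: filterByExpr (minimum count 10, minimum total count 15) kept 15674 of 37384 genes, followed by TMM normalization and the quasi-likelihood test, two-sided, without pairing, with Benjamini-Hochberg adjustment and a threshold of 0.05. The standard error is the absolute log2 fold change over the square root of F. limma 3.58.1 and DESeq2 1.42.0 served as alternatives. Log2 ratios within a library used CPM + 0.1 and an exact permutation test. Positions and exon lengths are from GENCODE M21, and promoter sequences from RefSeq GRCm38.p6. *Ero1a* was matched through a synonym, as *Ero1l*. At most 0.38% of the 50-base stretches of a member occurred in another gene, apart from *Angpt1* (13.3%). The tests were checked on simulated counts. No 2 replicates were copies of each other.

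The genes, lists and ratios were chosen with earlier results of these data known. Named are the 10 genes, called genes of the co-receptor and endothelial lists, and in other lists the 3 most abundant genes and the 2 largest called changes in each direction, plus the 2 genes nearest to each member. Of the genes this rule picks, 1 is not reported here. Other genes named, apart from *Prox1*, *Ccbe1*, *Adamts3*, *Vash1*, *Serpinf1*, *Col18a1*, *Plg* and *Ccl21a*, complete a short list of called genes or serve as denominators. Tables were made with Python 3.11.15 and pandas 2.3.3, and plots with matplotlib 3.10.9.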

Additional observations from a re-analysis of the deposited data

How the results depend on the processing

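*Vegfc*, *Vegfd* and *Pgf* kept their direction and their call under every alternative, and *Vegfb* under all but 1, being at -0.57 without L1L2-AKO replicate 2 (range of -0.72 to -0.57 without a library). With 3 pools per genotype and markers of other cells in the fraction moving too, counts per gene do not show which cells made a transcript, and *Pgf* rests on 12 to 77 counts.

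The log2 fold change of *Vegfa* was 0.0070 with DESeq2's size factors and in DESeq2's Wald test, 0.0037 with no count filter, 0.0067 with limma-voom and -0.15 to 0.21 without a library. That of *Kdr* was -0.0062 with the 20 most abundant genes left out, -0.066 with limma-voom and -0.32 to 0.32 without a library, and that of *Flt4* -0.25 to 0.43. *Angpt1* had -0.81 in DESeq2's test, and *Angpt2* -0.90 with no count filter, -0.90 in DESeq2's test, -0.96 with limma-voom and -1.17 to -0.64 without a library, all past the threshold apart from the fits that left out a library other than L1L2-AKO replicate 1. DESeq2's test called 4 of the 10 genes lower, where it called 1602 of all 15674 tested genes lower. Leaving out a library gave 1 to 3, where 467 to 1293 of all tested genes were called lower. The cause was not tested.

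The replicate numbers share only a number: the correlation of deviations from the genotype means was 0.188, 0.255 and -0.0544 for the 3 same-numbered pairs, and not every library correlated best with its own number. With the number as a replicate block 2514 genes were called against 2580, 1408 of the 15674 tested higher and 1106 lower. In that fit *Vegfa* had 0.0012, *Kdr* -0.059, *Fgl2* 0.022 and *Angpt2* -0.97 (past the threshold). There 1 co-receptor gene was called higher and 1 lower, 1 tip-cell gene lower, and 5 endothelial, 5 mural and 5 progenitor markers lower.

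Without a library 1281 to 2845 genes were called, 777 to 1552 higher and 467 to 1293 lower. The lists then gave 1 to 2 co-receptor genes, 0 to 4 relays, 1 to 3 lymphatic, 0 to 1 mural and 7 to 14 macrophage markers higher, and 0 to 1 processing genes, 0 to 2 relays, 0 to 1 tip-cell genes, 2 to 6 hypoxia genes, 0 to 2 endothelial, 0 to 1 lymphatic, 1 to 5 mural and 0 to 5 progenitor markers lower. With library size alone 1 co-receptor gene was called higher and 0 endothelial markers lower, where 1359 and 1088 of all 15674 tested genes were. With the 20 most abundant genes left out 1 co-receptor gene was higher and 1 relay lower, where 1286 and 1327 of all 15674 tested genes were. With at least 10 counts in every library 1 co-receptor gene was higher (1352 of 14240 tested genes were), since *Angpt4* was then not tested. With no count filter 5 mural and 4 progenitor markers were lower, where 1134 of all 24018 genes then tested were. DESeq2's test called 3500 genes, 1602 of the 15674 tested lower. It called 1 processing gene, 1 relay, 1 tip-cell gene, 2 endothelial, 6 mural, 8 adipocyte and 5 progenitor markers lower.

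With *Plvap* alone as the denominator, chosen after seeing the data, the log2 ratios were -0.23 for *Kdr*, 0.18 for *Flt1*, -0.11 for *Flt4* and -1.14 for *Angpt2*, and with *Pecam1* alone 0.87 for *Flt1*. By the longest transcript, ranks in L1L2-FF were 3 for *Vegfb*, 5 for *Angpt1*, 2 for *Kdr* and 4 for *Flt1*, and in L1L2-AKO 3 for *Vegfd*, 9 for *Angpt2*, 2 for *Kdr* and 8 for *Flt4*. Signs near 0 also turned for *Epas1* (-0.0030 with the 20 most abundant genes left out and -0.050 to 0.18 without a library), *Fgl2* (0.016 with limma-voom, -0.24 to 0.40 without a library) and *Plin4* (-0.040 with library size alone, -0.041 with upper-quartile factors, -0.074 with the 20 most abundant genes left out, -0.0012 with at least 10 counts in every library, -0.18 to 0.21 without a library).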
